A study of Mus musculus with 24 samples.

Results

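The genes described here are 9 actin-based motors and actin nucleators named for activated microglia: the unconventional myosins Myo1e, Myo1f, Myo5a and Myo9b and the formins Fmn1, Fmnl1, Fmnl2, Fmnl3 and Diaph2. They were taken by symbol from the features of the count matrices, and all 9 of the 32288 genes listed there were found in all 24 libraries. The libraries hold raw counts of unique molecular identifiers (UMIs) per nucleus from frozen brain tissue of 12 mice of the strain B6.Pdgfb tm3Cbet. In this strain the platelet-derived growth factor PDGF-B lacks the motif that holds it near the cell that secretes it. The 6 ret/ret mice carried the allele on both chromosomes and develop vessel calcification in the deep brain. The 6 ret/wt mice carried it on a single chromosome and served as controls, so no library came from a mouse without the allele. Each mouse gave a deep brain library (pallidum, thalamus and hypothalamus, midbrain and pons) and a cortical library (cerebral cortex and hippocampus). The mice were between 4 months 7 days and 5 months 18 days old, and all were female except ret/wt mouse 6. A count of Pdgfb UMIs does not tell which allele they came from, so these counts do not check the genotype labels.

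Unconventional myosins walk on or tether membranes to actin filaments and do not form the thick filaments of muscle. Myo1e and Myo1f are single-headed class I myosins with a long tail that bind membrane and gather at phagocytic cups and podosomes of macrophages. Myo5a, the product of the mouse dilute locus, carries vesicles and organelles along actin, and Myo9b serves the migration of macrophages. Formins nucleate and elongate unbranched actin filaments, in contrast to the Arp2/3 complex, which makes branched ones. Fmnl1, Fmnl2 and Fmnl3 are formin-like proteins (Fmnl1 is best known from blood cells), Diaph2 is a Diaphanous formin, and Fmn1 was named from the limb deformity locus. Microglia, the resident macrophages of the brain, depend on this machinery to extend processes, to move and to engulf. The study called the activated microglia around vessel calcifications calcification-associated microglia, or CAM.

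In mm10 coordinates, Myo1e (ENSMUSG00000032220) spans bases 70207350 to 70399766 of chromosome 9 on the plus strand. Myo1f (ENSMUSG00000024300) spans 33555707 to 33607764 of chromosome 17 (plus), Myo5a (ENSMUSG00000034593) 75071015 to 75223688 of chromosome 9 (plus) and Myo9b (ENSMUSG00000004677) 71272714 to 71360713 of chromosome 8 (plus). Fmn1 (ENSMUSG00000044042) spans 113327736 to 113716767 of chromosome 2 (plus), Fmnl1 (ENSMUSG00000055805) 103171107 to 103198901 of chromosome 11 (plus) and Fmnl2 (ENSMUSG00000036053) 52857860 to 53133804 of chromosome 2 (plus). Fmnl3 (ENSMUSG00000023008) spans 99317225 to 99370482 of chromosome 15 on the minus strand and Diaph2 (ENSMUSG00000034480) 129749742 to 130465834 of the X chromosome (plus). The counts include introns, so a long gene collects more UMIs than a short one at equal transcription, and levels are compared between classes of nuclei for 1 gene and not between genes. No gene in the matrices overlapped a member on the same strand. On the opposite strand, Myo9b was overlapped by Haus8, Fmnl1 by Gm20511 and Fmn1 by Gm13963, Gm13964, Gm13966 and 4930533B01Rik.

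The promoters of the 5 members that were highest in microglia in both regions, and of Myo1e, are printed. These genes divide into one close to restricted to microglia among the classes compared (Myo1f), broadly used ones and one that microglia held at a low level. Each sequence runs 5′ to 3′ on the strand of the gene, from 250 bases before to 50 bases after the RefSeq start (GRCm38.p6). They lie at chr17:33555457-33555756 for Myo1f, chrX:129749492-129749791 for Diaph2, chr8:71272464-71272763 for Myo9b, chr11:103170888-103171187 for Fmnl1, chr15:99370433-99370732 on the minus strand for Fmnl3 and chr9:70207100-70207399 for Myo1e. Capitals mark GGAAGT, the core bound by ETS family factors such as PU.1 of macrophages, or its reverse complement.
Myo1f: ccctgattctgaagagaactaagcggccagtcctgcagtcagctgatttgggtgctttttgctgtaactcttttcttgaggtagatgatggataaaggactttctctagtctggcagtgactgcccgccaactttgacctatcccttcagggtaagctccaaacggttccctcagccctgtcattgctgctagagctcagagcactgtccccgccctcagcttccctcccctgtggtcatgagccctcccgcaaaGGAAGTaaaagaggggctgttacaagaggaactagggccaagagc
Diaph2: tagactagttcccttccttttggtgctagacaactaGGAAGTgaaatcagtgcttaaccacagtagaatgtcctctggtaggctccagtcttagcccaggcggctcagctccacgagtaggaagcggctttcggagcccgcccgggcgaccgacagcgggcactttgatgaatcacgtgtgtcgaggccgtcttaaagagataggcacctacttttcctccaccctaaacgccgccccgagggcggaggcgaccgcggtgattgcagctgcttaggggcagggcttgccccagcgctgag
Myo9b: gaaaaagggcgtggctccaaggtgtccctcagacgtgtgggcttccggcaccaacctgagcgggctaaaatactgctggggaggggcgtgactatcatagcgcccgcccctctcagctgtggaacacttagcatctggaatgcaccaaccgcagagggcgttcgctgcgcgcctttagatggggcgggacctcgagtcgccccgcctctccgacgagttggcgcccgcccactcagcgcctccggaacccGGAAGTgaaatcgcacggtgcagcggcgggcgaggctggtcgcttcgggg
Fmnl1: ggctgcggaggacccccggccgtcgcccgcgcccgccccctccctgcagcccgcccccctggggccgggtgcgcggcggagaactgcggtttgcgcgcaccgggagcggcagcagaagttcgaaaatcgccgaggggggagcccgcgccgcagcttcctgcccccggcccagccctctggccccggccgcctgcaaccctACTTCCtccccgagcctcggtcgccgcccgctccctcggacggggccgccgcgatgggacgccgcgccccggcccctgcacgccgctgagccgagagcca
Fmnl3: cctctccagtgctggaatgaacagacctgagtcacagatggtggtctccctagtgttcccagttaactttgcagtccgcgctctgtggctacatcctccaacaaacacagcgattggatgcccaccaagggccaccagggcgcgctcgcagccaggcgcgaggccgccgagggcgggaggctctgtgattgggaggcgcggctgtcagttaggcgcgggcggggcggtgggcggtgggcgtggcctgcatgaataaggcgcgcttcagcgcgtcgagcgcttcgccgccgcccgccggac
Myo1e: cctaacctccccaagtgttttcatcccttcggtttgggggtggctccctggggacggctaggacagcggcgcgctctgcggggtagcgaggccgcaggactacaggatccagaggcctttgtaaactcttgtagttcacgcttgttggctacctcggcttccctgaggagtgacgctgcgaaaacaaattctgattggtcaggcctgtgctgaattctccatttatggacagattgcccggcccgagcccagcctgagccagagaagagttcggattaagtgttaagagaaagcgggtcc

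The core was searched on both strands in the 10 promoter windows of the members, Fmn1 having a pair of starts. It stood in 4 of them, at position +5 of Myo1f, -214 of Diaph2, 0 of Myo9b and -50 of Fmnl1, counted from the start. Of all 32851 mouse promoter windows of the same length, 23.8% held it. This motif was chosen after the sequences had been seen, and a match is a description of letters, not of binding. The GC-rich motif GGGCGG stood in 8 of the 10 windows and in 35.7% of all windows. The Myo1f window held 5 CpG pairs, those of the other members between 16 and 49, apart from the second start of Fmn1 with 0, and the median of all windows was 7.

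The deep brain libraries held 64736053 to 96459036 UMIs and 7715 to 11952 nuclei that passed the filters (500 to 7000 genes, at most 20% mitochondrial UMIs), 124958 nuclei in all. The cortical libraries were more uneven, with 23625232 to 95605387 UMIs and 2328 to 11083 nuclei, 79967 in all, and a median of 804 to 8054 UMIs per nucleus against 3547 to 7315 in the deep brain. Any pair of libraries shared at most 1.99% of the barcodes of the smaller one. Nuclei were clustered by region and named by markers, and levels are given as CPM, the UMIs of a gene per 1000000 UMIs of the class, in each library with at least 10 nuclei of it. From the microglial cluster (4810 deep brain and 1772 cortical nuclei), nuclei were removed when they held 1 or more UMIs of a marker of other cells (Rbfox3, Mbp, Aqp4 or Mrc1), which kept 2458 microglia in the deep brain and 1100 in the cortex. Of the cortical microglia, ret/ret mice 5 and 6 and ret/wt mouse 5 gave 319, 215 and 270 nuclei, and the other 9 libraries 19 to 61 each. Of the markers of border macrophages, Pf4 stood at 0 in all 4 groups, and Mrc1 was at 0 by selection. The others were present in the deep brain microglia that were kept. In clusters described further on, F13a1 had 25 UMIs in 4 CAM-like and 27 UMIs in 2 proliferating-like nuclei. Cd163 had 7 UMIs and Lyve1 1 UMI in CAM-like nuclei.

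The members were proposed with the CAM cluster and the deep brain difference between the genotypes already seen. Their order over classes, their levels in CAM and their genotype difference in deep brain microglia are therefore descriptions with no test. Microglia held 5 of the 9 genes at the highest mean level of all classes in both regions: Myo1f, Diaph2, Fmnl3, Fmnl1 and Myo9b. The other 4 genes were highest in other classes.

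Among the classes compared, which held no other class of immune cells, Myo1f was close to restricted to microglia. It stood at 422 ± 52.6 CPM (SD, n = 12 libraries) in deep brain microglia and at 480.5 ± 105 CPM in cortical microglia. The next class, fibroblasts, held 5.04 ± 4.48 and 7.56 ± 13.0 CPM, which is 83.7-fold and 63.5-fold less. The whole microglial cluster, before nuclei with Mrc1 or other markers were removed, was 3.85% of the deep brain nuclei. It gave 95.1% of all Myo1f UMIs there, and in the cortex 2.22% of the nuclei gave 83.9%. A Myo1f UMI was found in 56.6% of the 2458 deep brain microglia and in 0.193% of the 66978 neurons, although the median neuron had 9805 UMIs and the median nucleus of the microglial cluster 2408.

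Diaph2 was highest in microglia but present in all classes. Its level was 1257 ± 139 CPM in deep brain and 1150 ± 143 CPM in cortical microglia (n = 12 each). Fibroblasts followed with 723 ± 103 and 739 ± 258 CPM, and oligodendrocytes were lowest with 212 ± 14.7 and 212 ± 26.4 CPM. Fmnl3 stood at 297 ± 23.9 and 292 ± 47.6 CPM in microglia. In the deep brain, endothelial cells came next with 159 ± 51.5 CPM and were followed by precursors of oligodendrocytes with 58.0 ± 9.21 CPM, while neurons held 5.48 ± 0.845 CPM. In the cortex precursors came next with 49.8 ± 10.9 CPM. The microglial cluster gave 31.5% of the Fmnl3 UMIs of the deep brain and 33.3% of those of the cortex. Fmnl3 was thus the second most microglial of the 9 genes by its share of UMIs, after Myo1f.

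Fmnl1 and Myo9b were shared with neurons. Fmnl1 stood at 102 ± 20.0 CPM in deep brain microglia, above neurons (30.4 ± 10.7 CPM). Mural cells held 55.8 ± 22.3 CPM in 5 ret/ret libraries (33 UMIs in 65 nuclei) and 11.8 ± 13.4 CPM in 6 ret/wt libraries (9 UMIs in 175 nuclei), so their place above or below neurons (21.9 ± 3.78 and 38.9 ± 8.08 CPM) turned with the genotype, which was not tested in mural cells. In the cortex its levels in microglia (94.0 ± 26.7 CPM) and neurons (66.4 ± 13.0 CPM) overlapped within 1 SD. Neurons outnumber microglia, and they gave 87.8% of the Fmnl1 UMIs of the deep brain. Myo9b was at 153 ± 27.4 CPM in deep brain microglia against 81.1 ± 4.52 CPM in neurons, and at 129 ± 50.2 CPM in cortical microglia, where it overlapped with oligodendrocytes (73.9 ± 13.4 CPM). Below microglia, the classes from neurons down to endothelial cells differed in Myo9b by less than their spread from neighbour to neighbour.

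Myo1e, Myo5a, Fmn1 and Fmnl2 were not microglial genes by level. Myo1e was highest in endothelial cells (224 ± 43.2 CPM), ependymal cells (198 ± 41.8 CPM) and oligodendrocytes (175 ± 34.6 CPM) of the deep brain, 3 classes that overlapped. Microglia held 86.3 ± 37.5 CPM of it, within the spread of mural cells and astrocytes, and 53.9 ± 34.7 CPM in the cortex. Myo5a was highest in precursors (355 ± 28.9 CPM deep brain, 392 ± 41.8 CPM cortex) and neurons (311.5 ± 16.6 and 334 ± 13.3 CPM), with 151 ± 32.7 and 119 ± 32.7 CPM in microglia. Fmn1 was highest in fibroblasts (263 ± 54.7 and 243 ± 99.9 CPM), with 74.2 ± 21.3 and 78.9 ± 27.7 CPM in microglia. Fmnl2 was highest in oligodendrocytes and fibroblasts of the deep brain (811.5 ± 121 and 750 ± 169 CPM), which overlapped, and microglia with 242 ± 38.9 CPM ranked 8th of 9 classes. The plot of levels by class shows both patterns side by side.

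**Figure D1:**
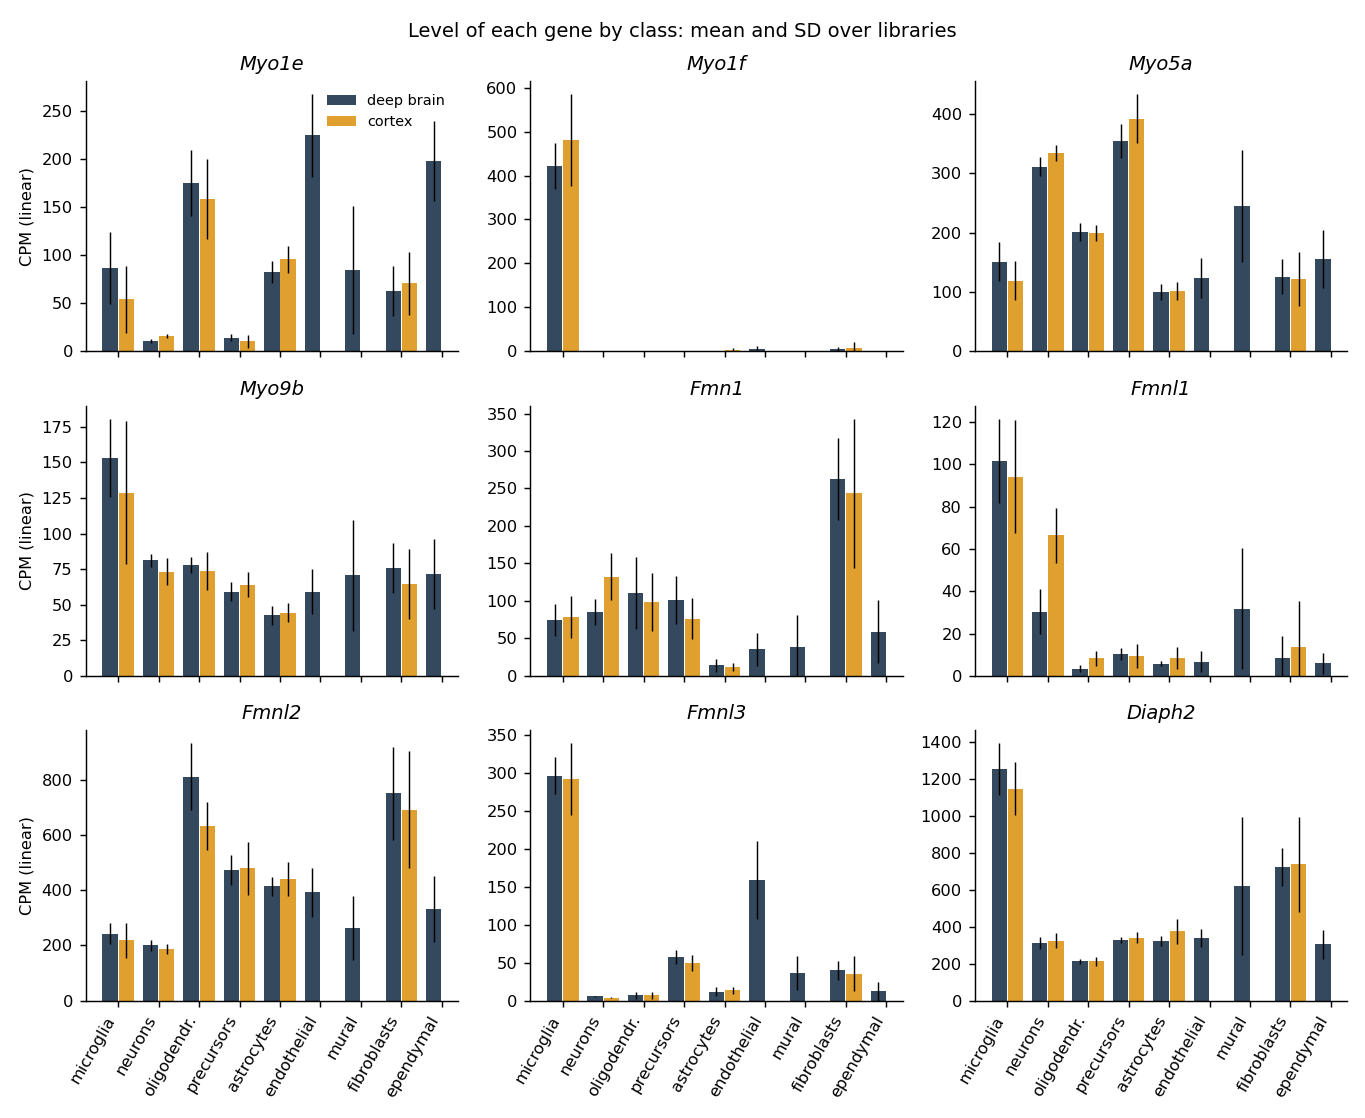
Level of each of the 9 genes in CPM (vertical axes, linear, from 0) by class of nuclei for deep brain and cortex. Bars are means over libraries and error bars are SD (lower ends cut at 0), and a missing bar is a class with fewer than 3 cortical libraries of at least 10 nuclei. Myo1f is seen almost only in microglia (422 CPM deep brain, 480.5 CPM cortex), Diaph2, Fmnl3, Fmnl1 and Myo9b are highest there, and Myo1e, Myo5a, Fmn1 and Fmnl2 are higher in other classes.

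RNA of neurons was present in the microglial nuclei, so the members that neurons hold are given beside genes of neurons. The neuronal genes Syt1, Snap25, Grin2a, Celf4, Nrg3 and Rbfox1 stood in microglia at 6.00% to 22.2% of their neuronal CPM in the deep brain and at 7.95% to 21.3% in the cortex. Myo5a stood at 48.4% and 35.4% of its neuronal level, Fmn1 at 86.4% and 61.1%, Fmnl2 at 123% and 124% and Myo9b at 186% and 177%. All members were above the range of the neuronal genes. What part of the UMIs of Myo5a in microglia came from neurons was not tested.

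By class profile, 3 genes most like each member were named by Pearson's r over 15 class levels (9 deep brain and 6 cortical classes, which share libraries) among 12747 genes, as a description. For Myo1f they were Gm35154 (r = 0.995), C3ar1, a complement receptor (0.992), and P2ry6, a nucleotide receptor (0.991). For Diaph2 they were Abca9, Calhm2 and Zfp148 (0.951 to 0.964), for Fmnl3 Ppp1r18, Tram1 and Mfsd1 (0.969 to 0.984), and for Fmnl1 Camkk2, Ipcef1 and Atp8a2 (0.941 to 0.953). Myo1e was most like Ech1, Gpx4 and Plin3 (0.918 to 0.939), Myo5a like Rps6kl1, B3gat1 and Pak3 (0.948 to 0.968) and Myo9b like Plekhm3, Slf2 and Dgkd (0.933 to 0.935). Fmn1 was most like Zmynd8, Tln2 and Pdk3 (0.852 to 0.895) and Fmnl2 like Plekhf1, Gsn and Hhip (0.923 to 0.955).

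In the deep brain, Myo1e had the largest log2 difference between the genotypes among the members in microglia. In ret/ret mice 1 to 6 it was at 104, 85.8, 142, 89.9, 83.0 and 159 CPM, from 45 to 74 UMIs per library. In ret/wt mice 1 to 6 it was at 36.3, 53.8, 72.4, 62.3, 106 and 40.9 CPM, from 16 to 50 UMIs. Among the controls, only ret/wt mouse 5 reached into the ret/ret range, and the 2 highest libraries (ret/ret mice 3 and 6) were above all ret/wt libraries. The log2 difference estimated by edgeR was 0.83 (SE 0.23). With mice of the same labelled age as a block it was 0.86 (SE 0.16), and the ret/ret mouse was above the ret/wt mouse of its age in 6 of 6 pairs for Myo1e. That count was also 6 for Fmn1. It was 5 for Myo5a and Fmnl2, 3 for Myo9b and Diaph2, 2 for Myo1f and Fmnl3 and 1 for Fmnl1. Fewer nuclei with a transcript and less RNA per nucleus cannot be told apart in these sums.

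Fmn1 and Myo5a were also higher on average in ret/ret deep brain microglia. Fmn1 was at 68.6, 80.1, 95.4, 76.3, 74.7 and 127 CPM in ret/ret mice 1 to 6 and at 47.6, 66.7, 75.5, 70.5, 46.8 and 61.4 CPM in ret/wt mice 1 to 6. Of the ret/ret libraries, 4 were above the highest ret/wt library, and the log2 difference was 0.51 (SE 0.18). Myo5a was at 122, 181, 195, 176, 138 and 200 CPM in ret/ret and at 113, 138, 148, 136, 97.8 and 166 CPM in ret/wt mice, with 4 ret/ret libraries above the highest ret/wt library and a log2 difference of 0.35 (SE 0.14). Fmnl2 was at 237 to 297 CPM in ret/ret and 170 to 277 CPM in ret/wt mice (log2 difference 0.32, SE 0.11). Fmnl1 was the member with the largest difference the other way, at 67.8 to 109 CPM in ret/ret and 85.0 to 138 CPM in ret/wt mice (log2 difference -0.33, SE 0.14). The remaining 4 genes lay between -0.12 (Myo1f) and 0.07 (Myo9b).

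None of the 9 was called in that comparison, in which 8 of 8053 genes (0.0993%) were called, and the groups overlapped for every member. With the age block, Myo1e passed the threshold and 13 genes (0.161%) were called, and without the filter on low counts Myo1e passed it and 103 of 20528 genes (0.502%) were called. Nothing is read from these calls, since this contrast was used to choose the members. Myo1f ranged from 315 to 469 CPM in ret/ret and from 379 to 495 CPM in ret/wt mice, and Diaph2 from 940 to 1407 and from 1106 to 1376 CPM. The X-linked Diaph2 stood at 1359 CPM in the deep brain microglia of the male, ret/wt mouse 6, within the range of the ret/wt females. The median log2 difference of the 9 members was 0.07 and that of all genes tested 0.00. With the nuclei of the homeostatic-like cluster alone, described further on, the difference was -0.00 for Myo1e, 0.01 for Myo5a, 0.38 for Fmn1, 0.23 for Fmnl2 and -0.42 for Fmnl1, and 0 of the 9 members tested were called, with 4 of 5273 genes (0.0759%) called. In the same libraries the summed level of 5 T cell markers was 59.9 to 233 CPM in ret/ret and 2.27 to 64.5 CPM in ret/wt microglia, that of border macrophage markers was 12.2 ± 19.1 and 11.0 ± 16.0 CPM, and that of 12 CAM markers was 609 to 1127 and 321 to 512 CPM. Their part in the member differences was not tested.

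**Figure D2:**
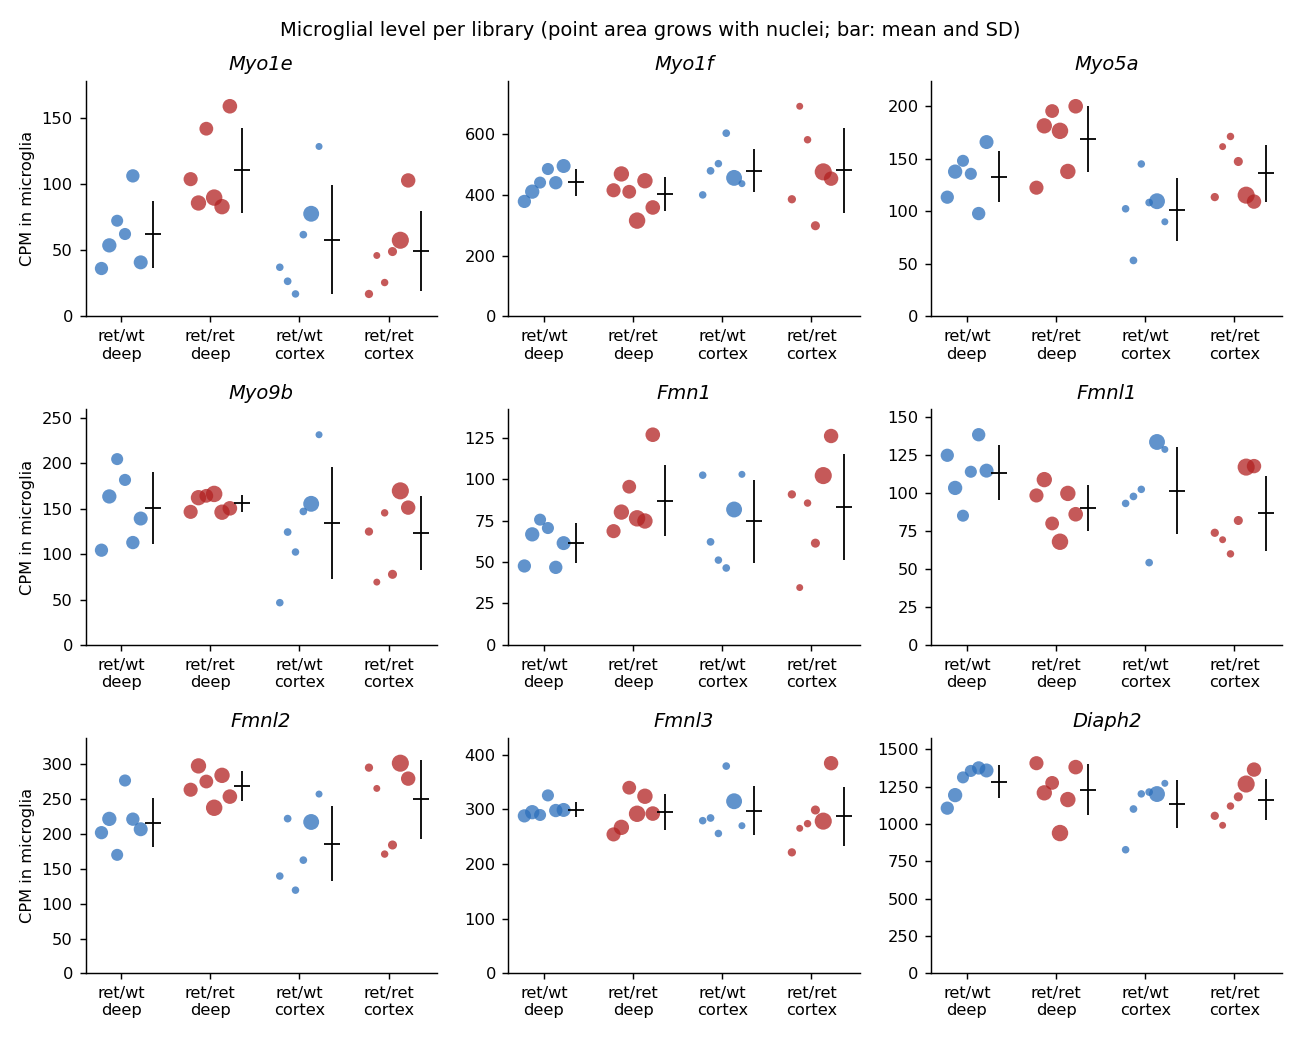
Level of each member in microglia (CPM, linear axes from 0) in each of the 24 libraries, by region and genotype. A point is a library and its area grows with the number of nuclei, and the bars give mean and SD. Myo1e has the largest log2 difference in the deep brain (83.0 to 159 CPM in ret/ret, 36.3 to 106 CPM in ret/wt), and the cortical groups overlap in all panels.

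Deep brain microglia were then clustered without the members and without the state markers used for naming (41 genes left out). At resolution 0.4 this gave 1275 homeostatic-like nuclei, 213 CAM-like nuclei, 53 T cell-like and 24 proliferating-like nuclei, and 893 nuclei without a name, of which 817 formed a cluster led by mitochondrial genes. The CAM-like cluster held 162 ret/ret and 51 ret/wt nuclei and was led by immunoglobulin genes (Igkv3-4, Igkv12-44, Ighv3-1, Igkv6-23), Cd74, Lilrb4a, Ifi207, H2-Eb1, Cybb and Lpl. Of these 10 leading genes, 4 are immunoglobulin genes of B cells and plasma cells and 3 (Cd74, Lilrb4a and Lpl) are on the list of CAM markers, so the name rests on that list and not on the leading genes as a whole. The cluster also met the list of interferon-responsive microglia. The 213 nuclei held 95 Lpl and 122 Tmem119 UMIs (201 and 259 CPM). At resolution 0.8 the CAM-like cluster had 123 nuclei, which held 94 and 38 UMIs (345 and 139 CPM). The 101 interferon-responsive-like nuclei of that resolution stood at 4.46 CPM for Lpl and 415 CPM for Tmem119. The cluster of 213 may thus mix marker states, and its levels are those of all its nuclei together. Its 631 UMIs of 392 immunoglobulin genes lay in 22 of the 213 nuclei, with up to 258 in a single nucleus, against 125 UMIs in 110 of the 1275 homeostatic-like nuclei. Of the border macrophage markers, F13a1 stood at 53.0 CPM (25 UMIs in 4 nuclei) against 0.683 CPM in homeostatic-like nuclei, Cd163 had 7 UMIs and Lyve1 had 1 UMI against 0, and Mrc1 and Pf4 were at 0 in both clusters. Its marker levels were 905 CPM for Apoe against 176 CPM in homeostatic-like nuclei and 86.9 against 4.44 CPM for Spp1, while Tmem119 was at 259 against 419 CPM and P2ry12 at 1036 against 1678 CPM.

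Within ret/ret libraries the 9 genes fell into a group that was higher in CAM-like nuclei and a group that was not. Myo1e differed most. It stood in CAM-like nuclei at 481, 347, 529, 462, 355 and 633 CPM in ret/ret mice 1 to 6, from 13 to 40 UMIs each, and in homeostatic-like nuclei at 46.9, 32.5, 95.3, 18.4, 73.5 and 66.3 CPM, from 1 to 25 UMIs. The ranges did not overlap, and the means were 468 ± 108 and 55.5 ± 28.3 CPM (SD, n = 6), a ratio of 8.43. At the finer resolution of 0.8, which named 123 nuclei CAM-like and 101 others interferon-responsive-like, Myo1e stood at 756 ± 193 CPM in CAM-like and 57.1 ± 20.2 CPM in homeostatic-like nuclei (ratio 13.2), and at 62.5 CPM (14 UMIs, all libraries together) in the interferon-responsive-like nuclei. The lowest homeostatic-like value rests on 1 UMI in the 28 homeostatic-like nuclei of ret/ret mouse 4.

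Myo5a stood at 374, 336, 476, 497, 543 and 443 CPM in CAM-like and at 107, 139, 80.3, 166, 85.2 and 101 CPM in homeostatic-like nuclei of ret/ret mice 1 to 6. The ratio of the means was 3.93 (6.03 at resolution 0.8, with 694 ± 181 CPM in CAM-like nuclei), and again every CAM-like value was above every homeostatic-like value. Fmn1, at 159 ± 49.3 against 71.8 ± 34.4 CPM, was higher in 6 of 6 libraries with a ratio of 2.22. Myo9b, at 279 ± 68.0 against 157 ± 34.2 CPM, was higher in 6 of 6 with a ratio of 1.78. Fmnl2 was at 530 ± 191 against 242 ± 22.7 CPM (ratio 2.19), higher in 5 of 6 libraries, with ret/ret mouse 6 as the exception (206 against 246 CPM). Myo1f was at 634 ± 109 against 447 ± 75.6 CPM (ratio 1.42), higher in 5 of 6, with ret/ret mouse 4 as the exception.

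Of the other formins, Fmnl1 had nearly the same mean in both states, at 95.5 ± 31.8 and 95.3 ± 22.7 CPM. Diaph2 stood at 1281 ± 334 in CAM-like and 1365 ± 160 CPM in homeostatic-like nuclei and was higher in CAM-like nuclei in 1 of 6 libraries. Fmnl3 was at 232 ± 100 and 331 ± 61.4 CPM, higher in 1 of 6, with a ratio of 0.70. The 3 members that were most restricted to or highest in microglia (Myo1f, Fmnl3 and Diaph2) were thus those with the smallest ratios beside Fmnl1, and Myo1e and Myo5a, low in microglia as a whole, had the largest. Without the nuclei that held a UMI of an immunoglobulin gene or of F13a1, Cd163, Lyve1 or Pf4, 143 CAM-like and 547 homeostatic-like nuclei remained in ret/ret libraries (a choice made after seeing the data). The ratios were then 8.36 for Myo1e, 4.13 for Myo5a, 2.24 for Fmn1, 2.22 for Fmnl2, 1.86 for Myo9b, 1.45 for Myo1f, 1.04 for Fmnl1, 0.98 for Diaph2 and 0.68 for Fmnl3. Myo9b was then higher in 5 of 6 libraries and Diaph2 in 4 of 6. The study's own list of genes raised in CAM, made on these libraries, held Myo1e, Myo5a, Fmn1, Fmnl2 and Myo9b, so these ratios are not independent of the choice of the members.

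**Figure D3:**
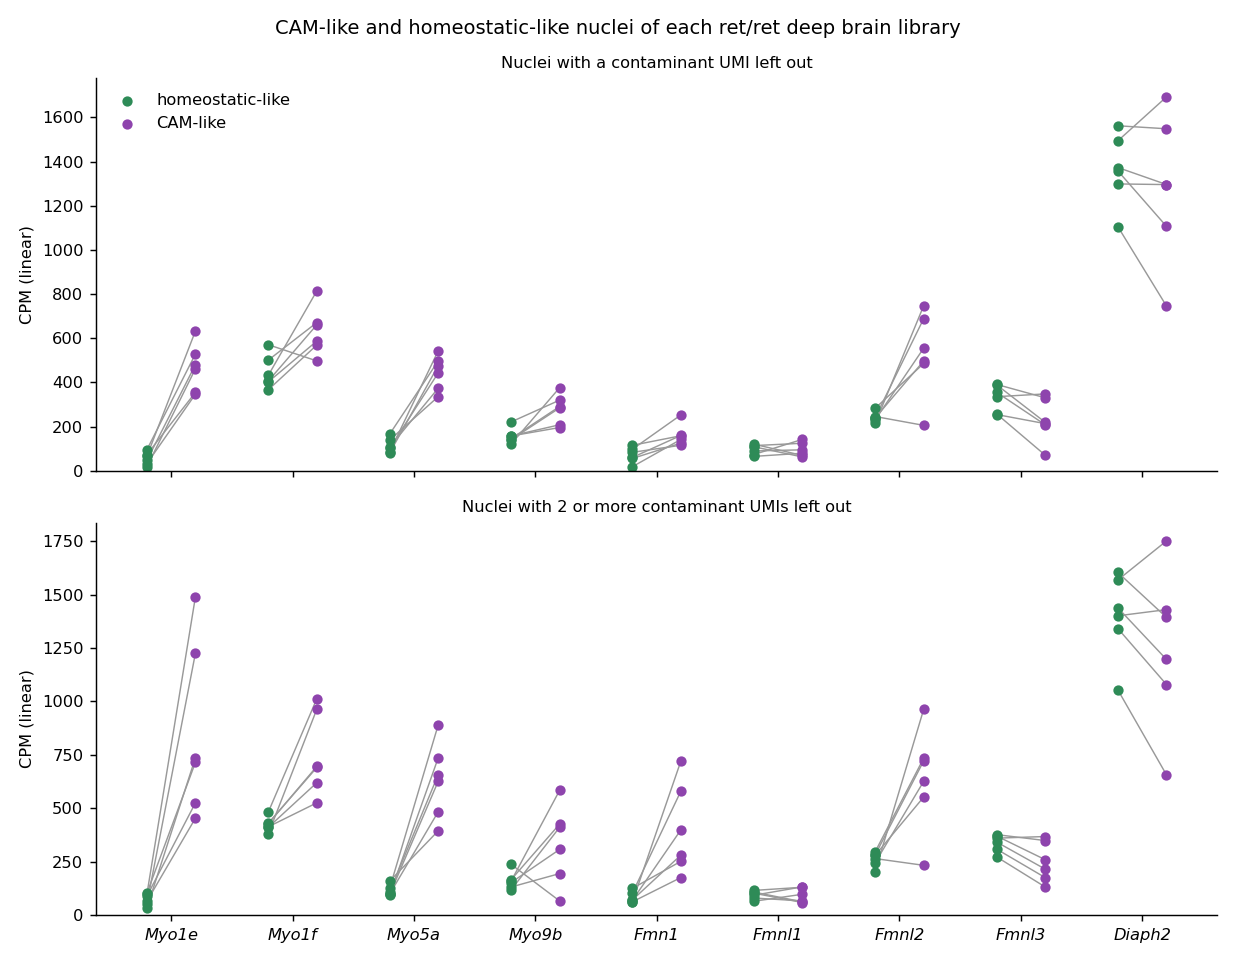
Level of each member (CPM, linear axes from 0) in homeostatic-like and CAM-like nuclei of the 6 ret/ret deep brain libraries, with a line for each library. The upper row leaves out nuclei with 1 or more UMIs of a marker of other cells, the lower row only those with 2 or more. Over both genotypes the CAM-like cluster held 213 nuclei above and 93 below, so the rows compare unlike clusters. All 6 lines rise for Myo1e (ratio of means 8.43 above, 11.9 below) and Myo5a (3.93 and 5.59), and lines of both directions are seen for Fmnl1.

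The milder limit of 2 UMIs kept 3539 microglia, but its CAM-like cluster held 93 nuclei instead of 213. Clusters of 86 interferon-responsive-like and 93 macrophage-like nuclei stood apart from it. In its CAM-like cluster Lpl was at 527 CPM against 201 CPM with the limit of 1, and Tmem119 at 109 against 259 CPM. The limits thus compare unlike clusters. With the milder limit, CAM-like nuclei stood at 858 ± 411 CPM for Myo1e, 631 ± 177 CPM for Myo5a and 401 ± 211 CPM for Fmn1, with ratios of 11.9, 5.59 and 4.94. Fmnl1 (90.4 against 93.1 CPM), Diaph2 (1251 against 1401 CPM) and Fmnl3 (249 against 338 CPM) again lay at or below the homeostatic-like level. A Myo1e UMI was found in 27.2% of the 213 CAM-like and in 10.9% of the 1275 homeostatic-like nuclei, whose median depths were 2154 and 2293 UMIs. Thinned to 1000 UMIs, these shares were 18.0% of 206 and 5.49% of 1257 nuclei. Precursors, in which Myo1e was among the lowest, held a Myo1e UMI in 5.24% of 4025 nuclei at a median of 4857 UMIs. In the 4 ret/wt libraries with at least 5 CAM-like nuclei, Myo1e stood at 237 ± 240 CPM in CAM-like and 56.1 ± 26.6 CPM in homeostatic-like nuclei, a spread as wide as the mean. Proliferating-like nuclei, a cluster of 24 led by Mki67 and holding the formin Diaph3 among its top 10 genes, held Myo5a at 445 CPM (34 UMIs), and 2 of these nuclei held 27 F13a1 UMIs.

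The cortex, where vessels are not calcified, was not used to choose the members, so the genotype comparison in cortical microglia is a test of them. Of the 8 members tested there, 0 were called, and 6 of 2818 genes (0.213%) were called (edgeR quasi-likelihood test, Benjamini-Hochberg adjusted p under 0.05). Fmnl2 differed most, at 295, 265, 171, 184, 301 and 279 CPM in ret/ret mice 1 to 6 and at 140, 222, 119, 162, 217 and 257 CPM in ret/wt mice 1 to 6. The groups overlapped, and the log2 difference was 0.45 (SE 0.19, 95% interval 0.08 to 0.81, adjusted p = 0.690). Myo5a followed with 0.33 (SE 0.22, 95% interval -0.10 to 0.76, adjusted p = 0.895) and Fmn1 with 0.31 (SE 0.25, 95% interval -0.19 to 0.81, adjusted p = 0.949), and the other 5 lay between -0.15 (Fmnl1) and 0.05 (Diaph2). These values come from a fit without a block. For Fmnl2 and Myo5a, every ret/ret mouse was above the ret/wt mouse of the same number. For each of the other members, same-numbered mice went both ways. A block by replicate number changed the call of no member in cortical microglia.

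Myo1e did not pass the filter on low counts in the cortex. It stood at 17.0, 46.1, 25.7, 49.1, 57.6 and 103 CPM in ret/ret and at 37.2, 26.6, 17.0, 61.9, 77.7 and 128 CPM in ret/wt mice, with 2 to 49 UMIs per library. The groups covered the same range, and the difference of the means (49.7 ± 30.2 against 58.2 ± 41.2 CPM, n = 6 each) gave p = 0.690 in a two-sided exact permutation test. That test did not pair the mice by number, although same-numbered libraries correlated in cortical microglia, so its spread includes what such pairs share. Without the 3 mice that gave most cortical nuclei, 7 members were tested and 0 were called, with log2 differences of 0.54 (SE 0.28, adjusted p = 0.673) for Myo5a and 0.37 (adjusted p = 0.786) for Fmnl2, while 45 of 2821 genes were called.

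The difference between the genotype effects of the regions takes in the deep brain contrast and is a description for the members. It was 0.86 (SE 0.45) for Myo1e on the log2 scale, and between -0.19 (Fmnl1) and 0.19 (Fmn1) for the others. Of the 8927 genes tested, 0 (0%) were called by edgeR, with 312 at an unadjusted p under 0.05, 0 by DESeq2 and 2 with the mouse as a block. Without the 3 mice with most cortical nuclei the value for Myo1e was 1.51 (SE 0.55).

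Between the regions, no member passed the test in microglia of the control mice. The comparison used the ret/wt deep brain libraries that also serve as controls of the deep brain genotype comparison, and 0 of 9 members were called, with 70 of 6667 genes (1.05%) called. Both regions came from the same mice, and with the mouse as a block 109 genes and 0 members were called. The largest log2 differences, deep brain minus cortex, were 0.33 for Myo5a (SE 0.19, 95% interval -0.05 to 0.71, adjusted p = 0.651) and -0.31 for Fmn1 (SE 0.23, interval -0.76 to 0.14, adjusted p = 0.760). Diaph2 was at 0.15 (SE 0.11) and Myo1f at -0.15 (SE 0.12). When nuclei with UMIs of other cells were kept, 3 members were called, Myo5a (0.54, adjusted p = 0.0171), Fmnl3 (-0.43, adjusted p = 0.0142) and Myo1f (-0.65, adjusted p = 0.000435), in a comparison that called 22.3% of 10320 genes.

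Outside microglia, ret/ret and ret/wt mice were compared in 5 classes of the deep brain and 4 of the cortex, none of which was used to choose the members. A single member passed the test in a single class: Fmnl1 was lower in the pooled deep brain neurons of ret/ret mice. The make-up of these neurons differed between the genotypes, as described below. There 1 of 9 members was called, with 66 of 19913 genes (0.331%) called. Fmnl1 stood at 20.3, 21.8, 16.2, 27.2, 24.7 and 21.5 CPM in neurons of ret/ret mice 1 to 6 and at 50.7, 37.5, 26.8, 40.2, 43.3 and 34.6 CPM in those of ret/wt mice 1 to 6. Only ret/ret mouse 4 and ret/wt mouse 3 met at their edges, at 27.2 and 26.8 CPM. The log2 difference was -0.83 (SE 0.16, 95% interval -1.15 to -0.52), with an adjusted p of 0.0477 by edgeR and of 0.000188 by DESeq2. The call did not hold in 8 of the 12 fits that left out a mouse each, where the adjusted p rose to as much as 0.126 (without ret/ret mouse 1, 2, 3, 5 or 6 or ret/wt mouse 1, 4 or 5). Over all settings, 0 to 563 genes were called in deep brain neurons.

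The other 8 members were not called in deep brain neurons. Fmn1 (75.0 ± 11.7 against 95.3 ± 17.3 CPM) had a log2 difference of -0.35 (SE 0.12, adjusted p = 0.230) and Myo1e (9.46 ± 1.80 against 11.7 ± 1.72 CPM) one of -0.30 (SE 0.13, adjusted p = 0.362). Myo1f, at 0.278 ± 0.0662 against 0.141 ± 0.0524 CPM close to 0 in neurons of both genotypes, had 0.98 (SE 0.24, adjusted p = 0.0990). Myo5a, Myo9b, Fmnl2, Fmnl3 and Diaph2 lay between -0.04 and 0.09.

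The neurons of the genotypes differed in make-up. Clusters with at least 250 CPM of Slc17a7, a vesicular glutamate transporter, were 2 of 12 and were chosen after the Fmnl1 values had been seen. They held 1.44% to 13.1% of the neurons of the ret/ret libraries (mean 7.02 ± 4.45%) and 8.33% to 38.3% of those of the ret/wt libraries (24.2 ± 11.7%). The share was thus lower on average in ret/ret libraries, in the direction of Fmnl1, and how much of the Fmnl1 difference goes with it was not tested.

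Measured within kinds of neurons, which were all chosen after seeing the data, Fmnl1 gave the following values. In the Slc17a7-rich clusters alone it was at 54.5 ± 13.9 CPM in ret/ret and 88.3 ± 11.8 CPM in ret/wt libraries (log2 difference -0.58, adjusted p = 0.119, with 0.00667% of genes called). In all other neurons together it was at 18.2 ± 1.5 and 21.8 ± 3.4 CPM (-0.25, adjusted p = 0.724, with 0.0256% called). In the largest cluster it was at 17.9 ± 1.80 and 19.2 ± 1.35 CPM (-0.08, adjusted p = 0.941). In the cluster led by striatal genes it was at 20.8 ± 2.18 CPM (17.9 to 23.5) in ret/ret and 38.1 ± 8.62 CPM (26.8 to 47.3) in ret/wt libraries, without overlap (-0.87, adjusted p = 0.0372, with 0.131% called). In that cluster Slc17a7 was at 8.38 and 16.4 CPM, so it was lower there on average too. Of these values, that of the largest cluster was the smallest.

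**Figure D4:**
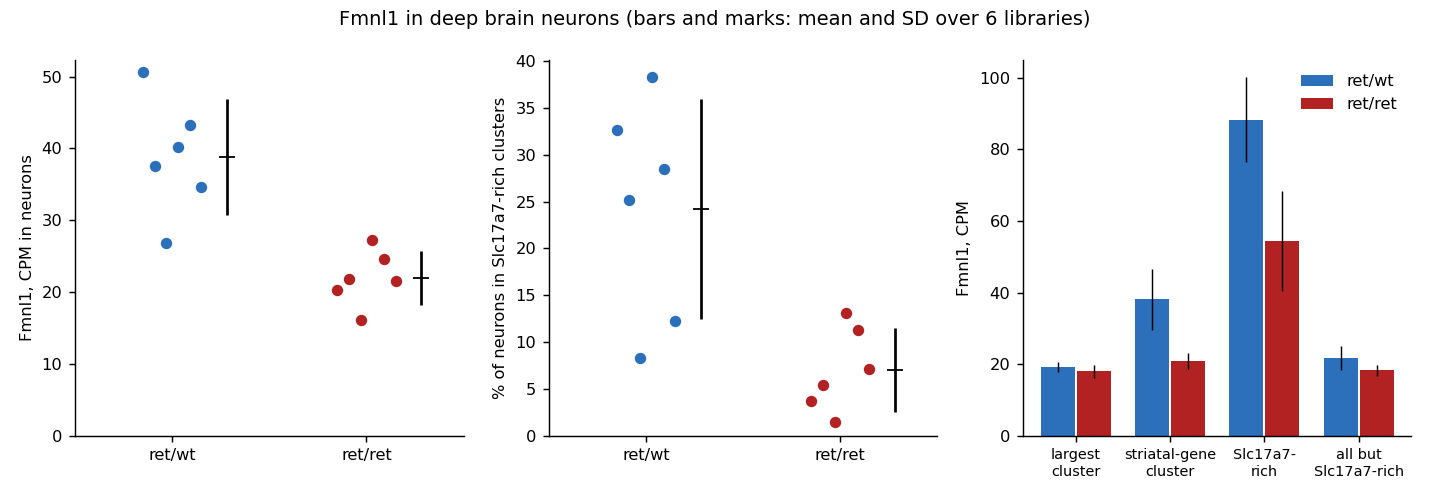
Fmnl1 in deep brain neurons. The panels show its CPM in each library by genotype, the percent of neurons in Slc17a7-rich clusters in each library, and its mean CPM with SD by kind of neuron (linear axes from 0). ret/ret libraries sit at 16.2 to 27.2 CPM and 1.44% to 13.1%, ret/wt libraries at 26.8 to 50.7 CPM and 8.33% to 38.3%.

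In deep brain oligodendrocytes, 0 of 8 members were called, with 224 of 13519 genes (1.66%) called. Fmnl1, rare in this class, had the largest difference, at 2.27 ± 1.37 CPM in ret/ret and 4.55 ± 0.950 CPM in ret/wt mice (log2 difference -1.004, SE 0.27, adjusted p = 0.0723), and it was called by DESeq2 (adjusted p = 0.0194) and without ret/ret mouse 4 (-1.35, adjusted p = 0.00226). Fmnl3 (-0.72, SE 0.39) and Fmn1 (-0.54, SE 0.26) were called only without ret/ret mouse 6 (-1.22, adjusted p = 0.0457, and -0.85, adjusted p = 0.0305) or, for Fmn1, also with mice of matched age as a block (-0.60, adjusted p = 0.0297). Over all settings, 105 to 496 genes were called in this class. Fmnl2, abundant in this class, was at 870 ± 129 against 753 ± 84.9 CPM (0.24, SE 0.11, adjusted p = 0.326). In deep brain astrocytes, where 649 of 12992 genes (5.00%) were called, 0 of 8 members were, and the largest difference was that of Fmnl3 (9.64 ± 6.37 against 13.7 ± 4.28 CPM, log2 difference -0.62, adjusted p = 0.295), which was called without ret/ret mouse 6 (-0.96, adjusted p = 0.0179). Over all settings, 347 to 1055 genes were called in astrocytes of the deep brain. In precursors 0 of 8 members and 0.0695% of 11508 genes were called. In endothelial cells, which secrete PDGF-B, 0 of 6 members and 0.385% of 4939 genes were called. Fmnl3, highest there after microglia, stood at 135 ± 24.8 CPM in ret/ret and 183 ± 62.1 CPM in ret/wt endothelial cells (log2 difference -0.43, SE 0.22, 95% interval -0.86 to 0.01, adjusted p = 0.636). Myo1e, highest of all in this class, was at 217 ± 55.0 and 232 ± 30.9 CPM (-0.10, SE 0.19, interval -0.46 to 0.27).

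In the cortex no member was called in any class. In oligodendrocytes 0 of 7 members were called against 0.989% of 10108 genes, and Fmnl2 came nearest, at 615 to 806 CPM in ret/ret and 492 to 621 CPM in ret/wt mice (log2 difference 0.33, SE 0.10, 95% interval 0.14 to 0.52, adjusted p = 0.108). It was called by DESeq2 (0.34, adjusted p = 0.0254), with mice of matched age as a block (adjusted p = 0.0309) and with the replicate number as a block (adjusted p = 0.0197). Over all settings, 97 to 499 genes were called in this class, against 100 in the reported fit. Diaph2 was at 229 ± 17.7 against 195 ± 22.4 CPM there (0.27, SE 0.10, adjusted p = 0.234). In astrocytes 0 of 5 members were called against 2.20% of 6987 genes, with Diaph2 at 418 ± 62.6 against 334 ± 42.4 CPM (0.32, SE 0.13, adjusted p = 0.271) and Myo5a at 91.3 ± 5.38 against 112 ± 16.3 CPM (-0.27, SE 0.14, adjusted p = 0.405). In neurons 0 of 8 members and 0 of 17237 genes (0%) were called by edgeR, with 785 genes at an unadjusted p under 0.05, 11 genes called by DESeq2 and 5 with the replicate number as a block. Fmnl1 had a log2 difference of -0.15 (SE 0.16, 95% interval -0.46 to 0.15) in cortical neurons, at 62.1 ± 13.0 and 70.7 ± 12.4 CPM. In precursors 0 of 6 members and 0 of 6090 genes (0%) were called, with 396 genes at an unadjusted p under 0.05 and 2 called by DESeq2.

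**Figure D5:**
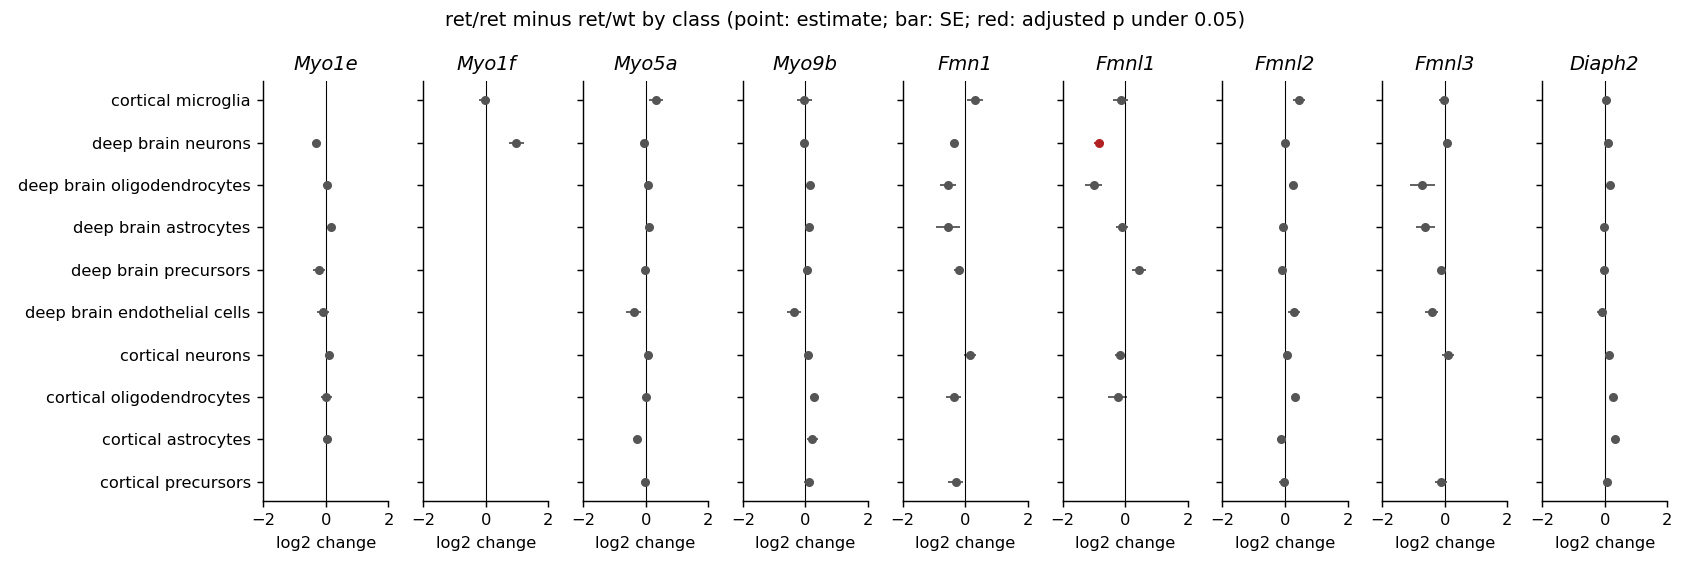
Log2 difference of each member, ret/ret minus ret/wt (horizontal axes), by class of nuclei and region. Points are edgeR estimates, bars are 1 SE, and red marks an adjusted p under 0.05, which only Fmnl1 in deep brain neurons (-0.83) reaches.

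The nearest relatives of the members had other class profiles. Fmn2, the relative of Fmn1, was highest in astrocytes of the deep brain (822 ± 66.7 CPM), followed by precursors (361 ± 34.4 CPM), ependymal cells (340 ± 84.5 CPM) and neurons (285 ± 11.8 CPM), and stood at 35.9 ± 16.3 CPM in microglia. Diaph1 stood in microglia at 57.9 CPM in the deep brain and Diaph3 at 23.5 CPM, with Diaph3 at 125 CPM in astrocytes. Myo5b was at 35.8 CPM in neurons and at 111 CPM in ependymal cells. Myo9a was held alike by microglia (296 CPM) and neurons (295 CPM), unlike Myo9b.

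Lists of related genes were counted in the same fits. Of 20 other unconventional myosins, 10 other formins and 28 genes of branched actin and the phagocytic cup, 9, 4 and 23 were tested in deep brain microglia. In each list 0 were called, beside 0.0993% of all genes, a share at which lists of this size would seldom hold a called gene. Their median log2 differences were 0.02, -0.04 and -0.02, against 0.00 over all genes. In cortical microglia 3, 0 and 17 of them were tested and 0 were called, beside 0.213% of all genes. In deep brain astrocytes 1 of 23 genes tested of branched actin and the phagocytic cup was called, beside 5.00% of all genes: Wipf1, a partner of the WASP activators of Arp2/3, rose (0.40, adjusted p = 0.0385). In deep brain oligodendrocytes 1 of 8 other formins tested was called, beside 1.66% of all genes: Fmn2 rose (0.48, adjusted p = 0.0220).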

How the data were processed

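The authors isolated nuclei from frozen tissue, made 10x Genomics droplet libraries and counted UMIs per gene with Cell Ranger 5.0.1, introns included, on mm10 (bcl2fastq 2.20.0.422 and mm10 per the labels); the deposited files hold these raw counts per barcode, and the 12 mice are separate animals. Nuclei with 500 to 7000 genes and at most 20% mitochondrial UMIs were clustered by region with Seurat 5.3.0 after 20 principal components (scanpy 1.11.5), and classes were named from fixed markers. The naming rule was set after the clusters had been seen: neurons were named in a separate step, and clusters that met many lists, mixed neuronal with other markers or were led by cell cycle or mitochondrial genes stayed unnamed. No doublet caller was run. Microglia exclude nuclei with 1 or more UMIs of Mrc1, Mbp, Aqp4 or Rbfox3.

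UMIs were summed per library and class and tested with edgeR 4.0.16 (TMM, filterByExpr, quasi-likelihood test), with Benjamini-Hochberg adjustment over all genes tested and a threshold of 0.05; CPM is the sum of a gene over all UMIs of the class. Scripts were tested on simulated data. Alternatives were other size factors, DESeq2 1.42.0, no filter, blocks of mice, each mouse left out, other contaminant limits, resolutions and thinning. All 9 members are described, and of 3 related lists the genes that passed. The members and lists were chosen with earlier results of these data known. Same-numbered mice of the genotypes deviated together in cortical neurons, where the 6 pairs correlated at 0.118 to 0.803. In cortical microglia the pairs correlated at 0.044 to 0.319, and 10 of 12 libraries correlated best with their same-numbered partner. Both regions came from the same mice. The reported fits carry no block. Blocked values, with the mouse, the replicate number or the labelled age as the block, are given beside them where the call of a member changed. For cortical neurons and the comparisons between regions they are also given where the count of calls moved by over 1.5 times. RefSeq gave promoters for all 9 members; protein sequences were not used here. Some marker sums and 1 related list are not reported here. UMI counts carry counting error, which the intervals of single nuclei shares would only partly cover, so shares of nuclei are given without intervals.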

Additional observations from a re-analysis of the deposited data

Results flagged for a closer look

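Of 36 groups of 6 libraries (9 genes in microglia of 2 regions and 2 genotypes), 1 held a library far from the others. Fmnl3 in deep brain microglia of ret/wt mouse 4 stood at 325.3 CPM (120 UMIs), while the other 5 ret/wt libraries lay between 287.9 and 298.7 CPM, so its gap to the nearest was 0.711 of the range of the group. Chance alone places about 5% of groups past this limit.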

How the results depend on the processing

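Of 1345 log2 differences of members under the alternatives, 1320 kept their side of the threshold, 1233 of them with the same sign, 14 passed it newly and 11 no longer passed it. The sign turned in 87, of which 0 were called in either fit; the one with the largest reported value is Myo1e in deep brain microglia (0.83, and -0.00 with homeostatic-like nuclei alone). The number of members called in deep brain microglia, a contrast that was used to choose them, was 1 (Myo1e) with mice of matched age as a block and 1 without the filter, against 0, and nothing is read from it. In control microglia it was 3 between regions with all nuclei of the microglial cluster, where 22.3% of all genes were called. In cortical oligodendrocytes it was 1 (Fmnl2) by DESeq2, with matched ages as a block and with the replicate block. In deep brain neurons it was 0 in the Slc17a7-rich clusters alone (0.00667% of all genes called), in the largest cluster alone and without the Slc17a7-rich clusters (0.0256%). It was 1 in the cluster led by striatal genes alone (0.131%). These subsets of neurons were chosen after seeing the data. With a mouse left out it was 0 to 1. In deep brain oligodendrocytes it was 1 by DESeq2 and with matched ages as a block and 0 to 2 with a mouse left out, and in deep brain astrocytes 0 to 1. The next paragraph gives the genes called in these classes as ranges over all settings. Those ranges are not split by setting, so the member counts are not read against them. The level in CAM-like nuclei was 756 CPM for Myo1e, 694 CPM for Myo5a, 350 CPM for Myo9b and 229 CPM for Fmn1 at resolution 0.8. It was 858, 631, 751 and 401 CPM for Myo1e, Myo5a, Myo1f and Fmn1 with the limit of 2 contaminant UMIs. The CAM-like cluster then held 123 and 93 nuclei instead of 213. The cause of these changes was not tested.

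Over all genes, the number called across settings was 4 to 103 in deep brain microglia (8 as reported), 0 to 70 in cortical microglia (6), 32 to 2298 between regions (70), 0 to 10 for the interaction (0) and 0 to 563 in deep brain neurons (66). In the other deep brain classes it was 105 to 496 in oligodendrocytes (224), 347 to 1055 in astrocytes (649), 6 to 69 in precursors (8) and 7 to 146 in endothelial cells (19). In the cortex it was 97 to 499 in oligodendrocytes (100), 154 to 353 in astrocytes (154), 0 to 11 in neurons (0) and 0 to 64 in precursors (0). With the mouse as a replicate block, 0 members were called between regions and for the interaction, and genes called went from 70 to 109 and from 0 to 2. In cortical neurons the replicate block gave 0 members and 5 genes. The replicate block changed the call of no other member than Fmnl2 in cortical oligodendrocytes. Depth limits the number of genes tested: thinned to 500 UMIs, cortical microglia left 169 genes to test.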
